A study of Arabidopsis thaliana with 9 samples.

Results

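The 10 genes described here encode the core of flavonoid and anthocyanin biosynthesis in Arabidopsis thaliana. They were chosen by gene identifier, with earlier results of these data known, and make up 10 of the 29071 genes with values in the deposited tables. They comprise the early enzymes CHS, CHI, F3H and F3'H, the flavonol enzyme FLS1, the late enzymes DFR and LDOX, and the transcription factors PAP1, PAP2 and TT8. RNA was sequenced from whole seedlings of wild type Col-0 in 3 groups of 3 libraries, which shared the genotype, the Murashige and Skoog medium and the age of 7 days and differed in what they were given. The water group was the control, the doxycycline group received a tetracycline antibiotic known to block translation on bacterial-type ribosomes such as those of mitochondria and plastids, and the EtBr group received ethidium bromide, a DNA-intercalating dye known to disturb organelle DNA. The series was set up to find genes of the mitochondrial unfolded protein response. The labels and files used here state neither the dose nor how long the treatments lasted. A whole seedling mixes root, shoot and all their cell types, so fewer cells of a type and less RNA per cell cannot be told apart in any value below.

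Flavonoids are made from phenylalanine through the phenylpropanoid pathway. CHS joins p-coumaroyl-CoA with malonyl-CoA, CHI closes the ring of the resulting chalcone, F3H hydroxylates the flavanone, and F3'H adds a hydroxyl group that sets the quercetin or cyanidin pattern. At the dihydroflavonols the pathway branches. FLS1 leads to flavonols, which absorb UV light in seedlings, while DFR and LDOX lead to anthocyanins and proanthocyanidins. In Arabidopsis the early genes are known targets of the MYB factors MYB12, MYB11 and MYB111 and of the light regulator HY5. The late genes are known targets of complexes of a MYB factor such as PAP1 or PAP2, a bHLH factor such as TT8, and the WD-repeat protein TTG1.

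The bases just before the annotated starts of the genes that fell together and of those that rose together under EtBr are shown, because light and pathway regulators of these genes are known to bind there. Each run is the 250 bases before the start of the gene, read 5′ to 3′ on the strand of the gene from the RefSeq TAIR10.1 genome. Capitals mark the G-box CACGTG, the known core site of HY5 and of bHLH factors, and the AC element, spelled ACCTACC or ACCTAAC or ACCAACC or ACCAAAC, known sites of MYB factors. All were searched on both strands. CHS, CHI and FLS1 had lower levels under EtBr than in water. CHS (chr5:4488226-4488475, plus strand), CHI (chr3:20431598-20431847, minus strand) and FLS1 (chr5:2803583-2803832, plus strand) read as follows.
CHS: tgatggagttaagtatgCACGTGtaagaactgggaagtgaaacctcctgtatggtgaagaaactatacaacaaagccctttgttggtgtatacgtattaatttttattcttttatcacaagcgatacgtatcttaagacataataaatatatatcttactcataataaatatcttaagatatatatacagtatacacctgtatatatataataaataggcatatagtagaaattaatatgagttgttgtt
CHI: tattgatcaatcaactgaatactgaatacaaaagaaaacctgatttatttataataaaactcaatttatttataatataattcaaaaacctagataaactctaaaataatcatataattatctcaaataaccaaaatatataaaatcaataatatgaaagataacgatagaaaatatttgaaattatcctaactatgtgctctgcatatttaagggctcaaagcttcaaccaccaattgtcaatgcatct
FLS1: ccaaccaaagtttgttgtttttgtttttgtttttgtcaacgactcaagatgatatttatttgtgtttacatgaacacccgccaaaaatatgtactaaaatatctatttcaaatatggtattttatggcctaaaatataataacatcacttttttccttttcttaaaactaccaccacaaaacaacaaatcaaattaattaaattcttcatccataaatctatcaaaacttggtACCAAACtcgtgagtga

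DFR and LDOX had higher levels under EtBr. DFR (chr5:17166033-17166282, minus strand) and LDOX (chr4:12006210-12006459, minus strand) read as follows.
DFR: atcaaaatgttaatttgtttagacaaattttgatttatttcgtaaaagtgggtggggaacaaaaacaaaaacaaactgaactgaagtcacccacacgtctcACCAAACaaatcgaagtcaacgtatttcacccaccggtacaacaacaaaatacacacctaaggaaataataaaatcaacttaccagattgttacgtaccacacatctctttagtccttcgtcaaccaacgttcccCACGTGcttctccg
LDOX: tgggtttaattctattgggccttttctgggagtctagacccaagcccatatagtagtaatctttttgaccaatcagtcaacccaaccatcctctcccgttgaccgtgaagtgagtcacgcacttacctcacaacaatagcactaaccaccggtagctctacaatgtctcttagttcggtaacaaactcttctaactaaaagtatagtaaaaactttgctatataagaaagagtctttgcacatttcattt

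The G-box was present in the windows of 4 of the 10 genes, against 6.49% of the same windows of 27431 protein-coding genes. In CHS it lay 233 to 228 bases before the start, in DFR 14 to 9, in F3H 249 to 244 and in PAP2 46 to 41. An AC element was present in 4 of the 10, against 13.7% of all windows. It was ACCAAAC in FLS1, DFR and PAP1 and ACCAACC in TT8, while ACCTACC and ACCTAAC were in none of the 10 windows. DFR held both kinds of motif, and CHI, LDOX and F3'H held neither in these 250 bases. The G-box was thus found before a gene that fell, CHS, and before a gene that rose, DFR, and ACCAAAC before FLS1 and DFR.

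Values are normalised counts, that is, read counts divided by a size factor for each library, as the authors deposited them in 1 table for doxycycline and water and 1 for EtBr and water. The same 3 water libraries stand in both tables, scaled apart, so the comparisons with water share their controls. Libraries held 17724030 to 20330871 reads counted to genes. Differences were tested with limma on log2(normalised count + 1), with Benjamini-Hochberg adjustment over all genes of a table, and a gene was called higher or lower at an adjusted p under 0.05. Fold changes of genes at or near 0 in a group depend on the 1 added, and for those named below the reads are given. The labels do not say that replicates came from separate plantings. The p-values therefore reflect nothing more than the spread among these libraries, which may be technical. The labelled tissue was checked with organ markers. The summed level of 7 green tissue markers was 565580 to 622660 in water and 516680 to 591930 with doxycycline, and on the scale of EtBr and its controls 600240 to 654970 in water and 354020 to 592670 with EtBr. The summed level of 7 root markers was 1154 to 1652 in water and 1097 to 1293 with doxycycline, and 1225 to 1716 in water and 1094 to 1236 with EtBr. The sums are carried by the most abundant markers and hide others. Per kilobase, RHS19 went from 96.3 in water to 1.02 with doxycycline and EXPA7 from 37.7 to 5.86, while SCR, SHR and GL2 had slightly higher means. With EtBr, LHCB3 went from 4669 to 1656 and PSBO2 from 9648 to 4239, while LHCB2.3 had a higher mean.

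In water, CHS, CHI, FLS1 and F3'H were well above 0, and the late enzymes DFR and LDOX were close to 0. Per kilobase of transcript, the mean level in water in the EtBr table was 1093 normalised counts for CHS, 404 for CHI, 184 for FLS1 and 81.3 for F3'H. Among the regulators it was 14.4 for PAP2 and 10.02 for TT8. It was 0.745 for LDOX and 0.478 for DFR, and PAP1 and F3H had no read in any water library. CHS, CHI, FLS1 and F3'H thus stood above DFR and LDOX in every water library, and PAP2 and TT8 lay between them with overlapping values.

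**Figure D1:**
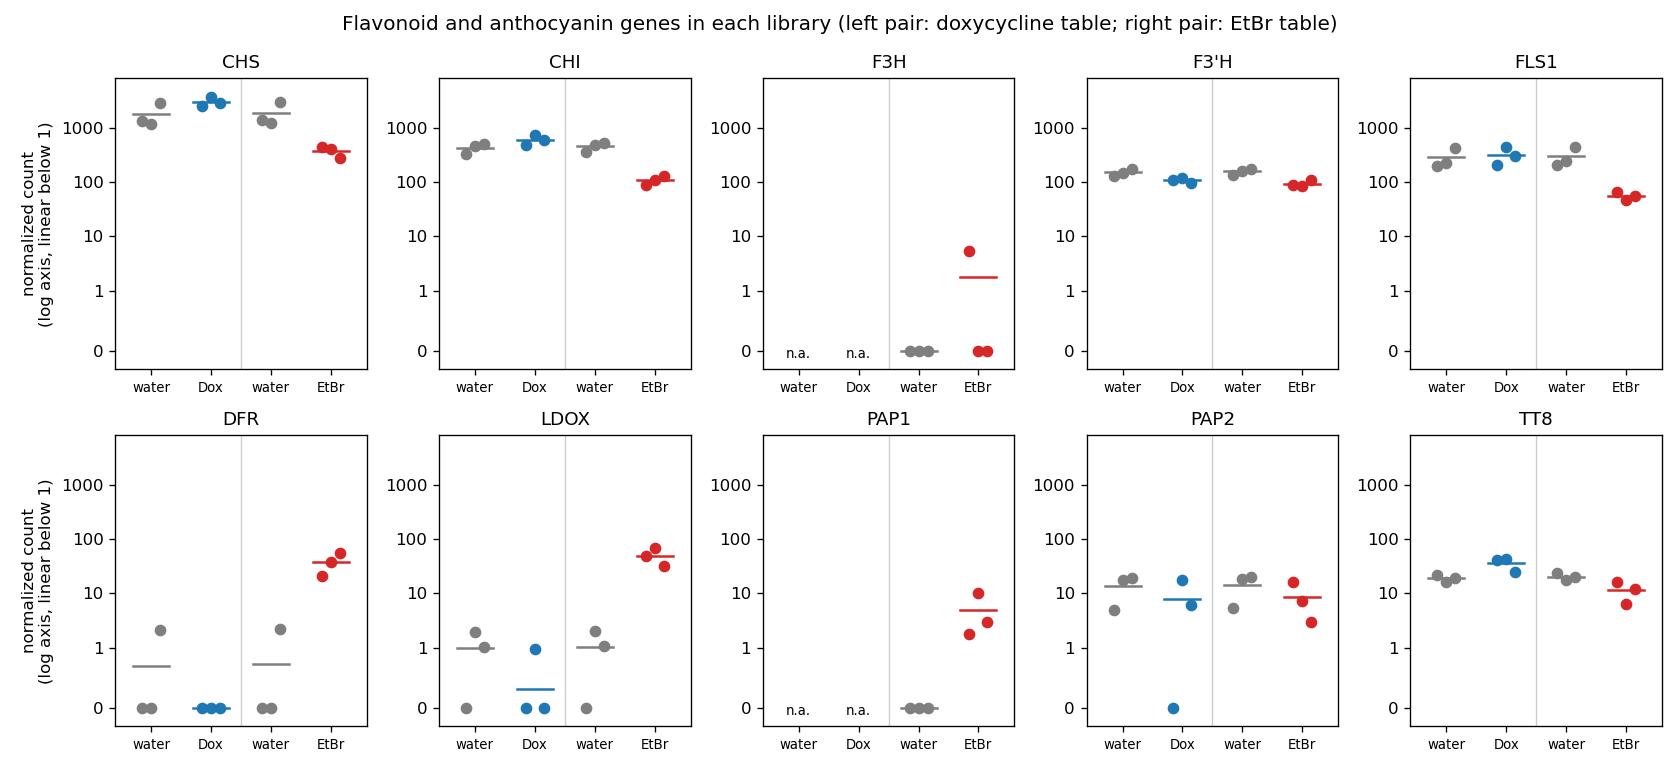
Normalised count of each of the 10 genes in each library (vertical axis logarithmic, linear below 1), with water and doxycycline from the doxycycline table on the left of each panel and water and EtBr from the EtBr table on the right; points are libraries, bars are means of 3 and n.a. marks values not analysed here. CHS, CHI and FLS1 were lower in all EtBr libraries than in any water library, and DFR and LDOX went from 0 to 2.18 in water to between 21.1 and 69.0 with EtBr.

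Under EtBr the early enzymes with measurable levels fell. Of the 10 genes, 4 were lower (CHS, CHI, F3'H and FLS1), 3 were higher (DFR, LDOX and PAP1) and 3 were not called (F3H, PAP2 and TT8). Over all 28956 genes tested with EtBr, 21.2% were lower, 34.2% were higher and 55.4% were called either way, so a call alone does not set a gene apart in this comparison. By edgeR, which called 53.5% of all genes, 3 of the 10 were higher and 4 lower, and by DESeq2, which called 55.4%, 2 were higher and 4 lower. The median log2 change was -0.73 over the 10 genes and 0.39 over all genes.

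CHS (AT5G13930, chr5:4488476-4490264, plus strand), the entry enzyme, was measured at 1391, 1211 and 2981 normalised counts in the water libraries and at 446, 409 and 273 with EtBr. All EtBr libraries lay below all water libraries, and water replicate 3 was the highest. The log2 change was -2.22 ± 0.34 (SE, n = 3 against 3; limma adjusted p = 0.000784), or 4.64-fold lower.

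CHI (AT3G55120, chr3:20430059-20431597, minus strand), the chalcone isomerase, was measured at 348, 486 and 515 in water and at 86.2, 107 and 130 with EtBr. The groups did not overlap, and the libraries within each stood closer together than those of CHS did in water. The log2 change was -2.05 ± 0.23 (SE; limma adjusted p = 0.000149), or 4.15-fold lower.

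FLS1 (AT5G08640, chr5:2803833-2805606, plus strand), the main flavonol synthase, was measured at 206, 241 and 446 in water and at 66.0, 46.0 and 55.4 with EtBr. Again all EtBr libraries were below all water libraries, with water replicate 3 on top. The log2 change was -2.33 ± 0.31 (SE; limma adjusted p = 0.000412), or 5.02-fold lower.

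F3'H (AT5G07990, chr5:2560328-2563137, plus strand), the cytochrome P450 that hydroxylates the B ring, moved less. It was measured at 137, 157 and 177 in water and at 87.9, 84.6 and 108 with EtBr. The groups did not overlap, and the log2 change was -0.74 ± 0.21 (SE; limma adjusted p = 0.0169), or 1.67-fold lower. This call was lost without water replicate 3 (adjusted p = 0.0624) and without EtBr replicate 2 (adjusted p = 0.0503).

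F3H (AT3G51240, chr3:19025192-19026872, plus strand), the flavanone 3-hydroxylase, had no read in the water libraries and 6 reads with EtBr, all in replicate 1. In the RefSeq annotation F3H shares 1588 of its 1681 bases with the antisense RNA AT3G51238, whereas CHS shares 2 bases with a neighbour and CHI, F3'H, FLS1, DFR, LDOX and PAP1 share none. No label or header used here says whether reads were counted by strand, and the part of this overlap in the level near 0 was not tested. The level is therefore given as counted and is not read as the expression of F3H.

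The late enzymes DFR and LDOX were near 0 in water and were counted in every EtBr library. DFR (AT5G42800, chr5:17164093-17166032, minus strand), the dihydroflavonol reductase, was measured at 0, 0 and 2.18 in water and at 21.1, 37.7 and 55.4 with EtBr. These values rest on 2 reads in water and 120 with EtBr, a ratio of 53.0 with a 95% counting interval of 14.4 to 443. The groups did not overlap (limma adjusted p = 0.000411).

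LDOX (AT4G22880, chr4:12004726-12006209, minus strand), also called anthocyanidin synthase, was measured at 0, 2.04 and 1.09 in water and at 48.4, 69.0 and 31.2 with EtBr. It had 3 reads in water and 161 with EtBr, a ratio of 47.4 with a 95% counting interval of 15.9 to 232. All EtBr libraries were far above all water libraries (limma adjusted p = 0.000219). Such intervals cover counting error only. With EtBr the mean level per kilobase was 35.4 for LDOX and 25.05 for DFR, beside 34.5 for FLS1, 96.8 for CHI and 221 for CHS.

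Genes near 0 in water were called higher under EtBr very often, and the rise of DFR and LDOX is read against that. Of the 8213 genes with a mean under 5 in water, 51.2% were called higher and 0.536% lower. A gene with no read in water cannot be called lower, and one with few reads has little room to fall. Among the 4758 genes with no read in water the 10th percentile of the log2 change was 0.637. The shares therefore cover mostly genes that had reads with EtBr, and not silent genes at large. Among genes with a water mean above 0 and up to 1, the class of DFR, the median log2 change was 2.16 and the 90th percentile was 4.89. The change of DFR on that scale was 4.63 ± 0.63 (SE), below the 90th percentile of its class. LDOX, with a change of 4.70 ± 0.56 (SE), lay at the edge between that class and the next on its 3 reads, with a water mean of 1.04 in the EtBr table and 0.991 for the same libraries in the doxycycline table. Among genes between 1 and 5 the median was 1.59 and the 90th percentile 4.46, so LDOX was above the 90th percentile of 1 class and below that of the other.

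The early genes stood on the other side. Among genes with a water mean of 100 to 1000, 31.8% were called lower, the median log2 change was -0.07 and the 10th percentile was -1.52. CHI and FLS1 lay below that percentile and F3'H inside the range. Among genes over 1000, 46.9% were called lower and the 10th percentile was -1.64, with CHS below it.

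**Figure D2:**
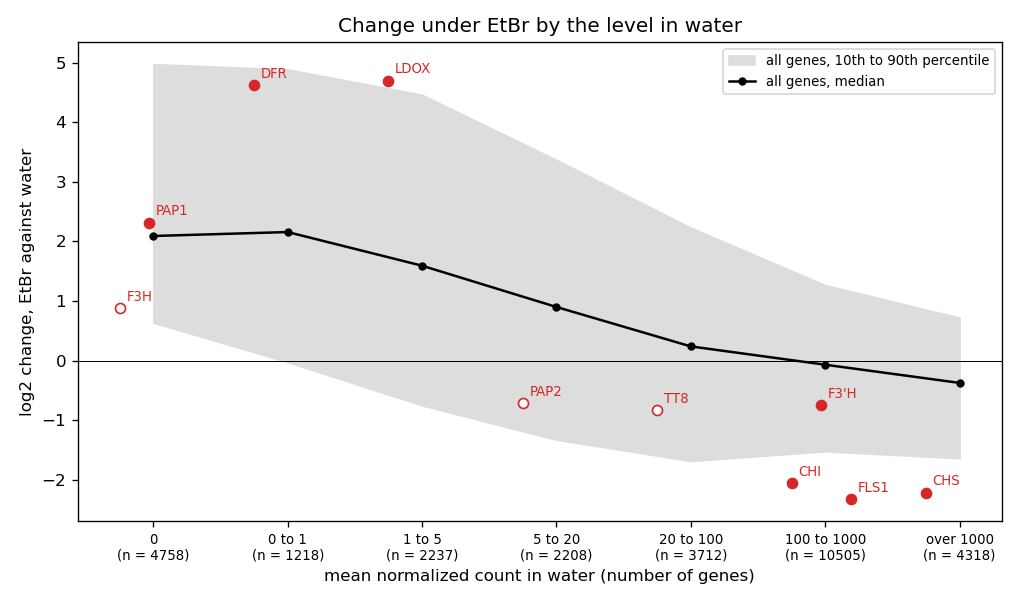
Log2 change under EtBr against water (vertical axis) by the mean normalised count in water (horizontal axis, 7 classes with their numbers of genes); the black line is the median and the grey band the 10th to 90th percentile of all genes, red points are the 10 genes (filled where called, spread sideways within a class only to keep them apart). CHS, CHI and FLS1 lie below the band and DFR and PAP1 inside it, while LDOX is drawn above the band of its class and would lie inside that of the class to its left, from which a water mean of 1.04 barely parts it.

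The regulators did not move as a group under EtBr. PAP1 (AT1G56650, also MYB75, chr1:21233555-21235292, minus strand), a MYB activator of the late genes, had no read in water and was measured at 1.76, 10.1 and 3.02 with EtBr. These are 16 reads against 0, at least 4.71-fold higher with a floor of 3 reads over the water group. Here and below, such a value leaves out the counting error of the group with reads and is not a confidence limit. The limma adjusted p was 0.0112, while DESeq2 put it at the threshold and did not call it, and 53.3% of the genes with no read in water were called higher. PAP1 and those genes could not be called lower, and most of them had reads with EtBr.

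PAP2 (AT1G66390, also MYB90, chr1:24763941-24765541, plus strand), its close relative, was measured at 5.29, 18.4 and 19.6 in water and at 15.8, 7.36 and 3.02 with EtBr. The groups overlapped, and the log2 change was -0.72 ± 0.69 (SE; limma adjusted p = 0.398). PAP2 lies in a row with its paralogs MYB113 and MYB114 on chromosome 1, so reads that fit several of them make its level uncertain.

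TT8 (AT4G09820, chr4:6181881-6186523, plus strand), the bHLH partner of the MYB factors, was measured at 23.3, 17.3 and 19.6 in water and at 15.8, 6.44 and 12.1 with EtBr. All EtBr libraries were below all water libraries, yet the log2 change of -0.83 ± 0.44 (SE) was not called (limma adjusted p = 0.144). Groups did not overlap for 61.0% of all genes in this comparison. When the changes were centred on the median of all genes, TT8 was called lower (log2 change -1.22, adjusted p = 0.0437). That centring moved the calls over all genes from 9906 higher and 6134 lower to 7545 higher and 8975 lower, and left the 7 other calls among the 10 genes in place.

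With doxycycline none of the 10 genes that could be analysed was called. Of the 10 genes 8 were analysed in that table, with F3H and PAP1 not analysed here, and limma called 0 of them. At an unadjusted p under 0.05 there were 3 higher (CHS, CHI and TT8) and 1 lower (F3'H), and edgeR and DESeq2, which called 11.9% and 16.1% of all genes, each called 0. Over all 24434 genes tested with doxycycline, 11.7% were called, 6.47% higher and 5.27% lower. The median log2 change was -0.14 over the 8 genes and -0.01 over all genes.

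CHS was measured at 1322, 1141 and 2870 in water and at 2473, 3711 and 2799 with doxycycline. Water replicate 3 lay inside the doxycycline group, and the other water libraries lay below it. The log2 change was 0.86 ± 0.29 (SE; limma adjusted p = 0.0920). Without water replicate 3 it was 1.26 and was called (adjusted p = 0.0413), so the outcome for CHS in this comparison rests on that library.

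CHI was measured at 331, 458 and 496 in water and at 486, 734 and 585 with doxycycline, with a log2 change of 0.49 ± 0.19 (SE; limma adjusted p = 0.132). The groups overlapped through the lowest doxycycline and the highest water library. FLS1 was measured at 196, 227 and 429 in water and at 208, 446 and 304 with doxycycline, with a log2 change of 0.19 ± 0.32 (SE; limma adjusted p = 0.761). Its groups overlapped almost fully.

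F3'H was measured at 130, 148 and 170 in water and at 107, 119 and 95.7 with doxycycline. The groups did not overlap, which held for 30.6% of all genes, and the log2 change was -0.47 ± 0.21 (SE; limma adjusted p = 0.181). TT8 was measured at 22.1, 16.3 and 18.9 in water and at 41.6, 42.9 and 24.9 with doxycycline. All doxycycline libraries were above all water libraries, and the log2 change was 0.87 ± 0.38 (SE; limma adjusted p = 0.178).

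DFR and LDOX stayed near 0 with doxycycline. DFR had 2 reads in water and 0 with doxycycline, and LDOX had 3 in water and 1 with doxycycline. PAP2 was measured at 5.03, 17.3 and 18.9 in water and at 0, 17.6 and 5.98 with doxycycline, with overlapping groups (limma adjusted p = 0.417).

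EtBr and doxycycline were also compared directly, on read counts of all 9 libraries scaled together and over the 24319 genes in both tables. Of the 8 genes analysed, 4 were lower with EtBr (CHS, CHI, FLS1 and TT8) and 2 were higher (DFR and LDOX), while over all genes 24.8% were lower, 32.4% higher and 57.3% called either way. The numbers were the same by edgeR and DESeq2, which called 56.8% and 57.1% of all genes. CHS had a log2 change of -3.06 ± 0.23 (SE; limma adjusted p = 0.000116), or 8.35-fold lower with EtBr. CHI had -2.53 ± 0.21 (SE; adjusted p = 0.000169) and FLS1 -2.50 ± 0.31 (SE; adjusted p = 0.000668). In none of these did the groups overlap, which held for 64.7% of all genes.

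DFR had 120 reads with EtBr and 0 with doxycycline, at least 36.2-fold higher with a floor of 3 reads over the doxycycline group (limma adjusted p = 0.000161). LDOX had 161 reads against 1, a ratio of 146 with a 95% counting interval of 25.8 to 5789 (limma adjusted p = 0.000205). For both genes every EtBr library was above every doxycycline library. TT8, which was called against water with neither treatment, was measured at 15.6, 6.36 and 11.9 with EtBr and at 43.0, 44.6 and 25.5 with doxycycline on the common scale. Its log2 change between the treatments was -1.69 ± 0.42 (SE; adjusted p = 0.0134), or 3.22-fold lower with EtBr. That call was lost without doxycycline replicate 1 or replicate 2 (adjusted p = 0.0507 and 0.0506). F3'H had a log2 change of -0.26 ± 0.19 (SE; adjusted p = 0.279) and was not called. PAP2 was not called either, on 29 reads with EtBr and 24 with doxycycline. Its log2 change of 0.67 ± 1.12 (SE; adjusted p = 0.635) depended on the 1 added, at 1.66 with 0.1 added and 0.22 with 5 added, and was -0.0041 by edgeR and 0.060 by DESeq2.

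**Figure D3:**
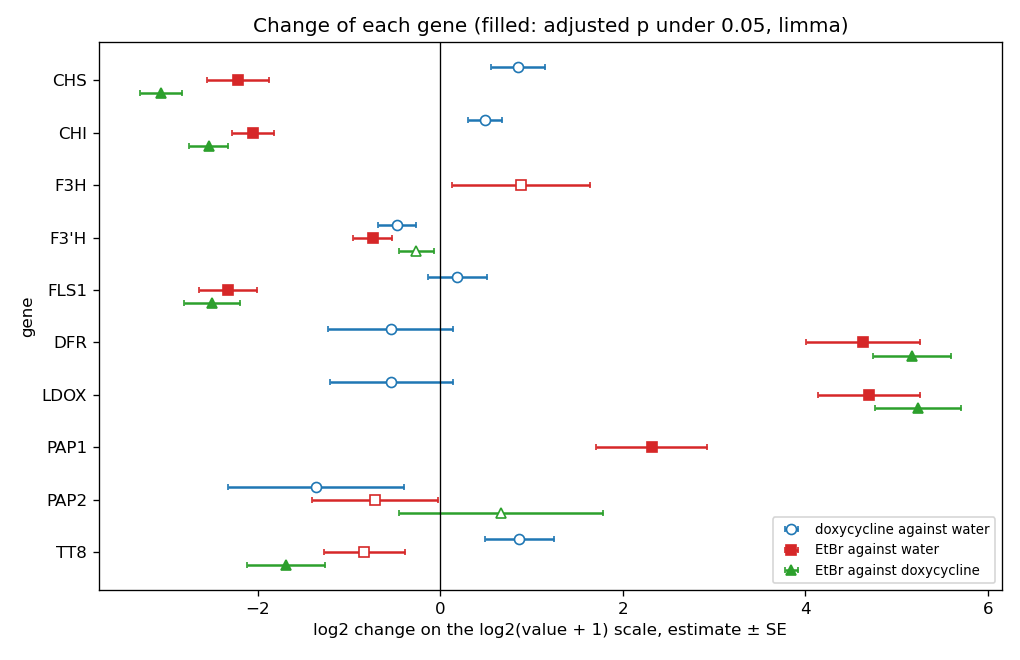
Log2 change on the log2(normalised count + 1) scale (horizontal axis) of each gene (vertical axis) for doxycycline against water (circles), EtBr against water (squares) and EtBr against doxycycline (triangles); bars are ± SE of 3 against 3 libraries and filled symbols are called. The circles are all open, with CHS at 0.86, and the squares part into CHS, CHI, F3'H and FLS1 on the left and DFR, LDOX and PAP1 on the right.

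In water and with doxycycline the early genes were highest in the same library. In water, replicate 3 was the highest library for CHS, at 2.33 times the mean of the other two, for FLS1 at 2.03 times, for CHI at 1.26 times and for F3'H at 1.22 times. The same library was the highest for CHIL, the chalcone isomerase-like protein that assists CHS, at 2.70 times. With doxycycline, replicate 2 was the highest for CHS (1.41 times), CHI (1.37 times), F3'H (1.17 times), FLS1 (1.74 times) and CHIL (1.42 times). With EtBr no library led: replicate 1 was the highest for CHS and FLS1, replicate 2 for CHIL and LDOX, and replicate 3 for CHI, F3'H and DFR.

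Across the 9 libraries on the common scale, the level of CHS had a Pearson r of 0.94 with CHI, 0.96 with FLS1, 0.52 with F3'H, 0.97 with CHIL and 0.95 with MYB12. DFR had 0.95 with LDOX. PAP2 had 0.05 with CHS and 0.02 with DFR. These coefficients describe 9 points that fall into the 3 treatment groups. Among the 17189 genes with a mean of at least 50, outside the lists below, those most like CHS over the 9 libraries were BPG2, a chloroplast protein (r = 0.983), AT2G37660 (0.983), AT4G00780 (0.981), CEN (0.980) and ADT5 (0.979). ADT5 is an arogenate dehydratase, of the enzymes that form phenylalanine, and its mean was 981 normalised counts in water, 1256 with doxycycline and 199 with EtBr. Those most like DFR were the histone genes HTR2 (0.998), HTB1 (0.996), HTA6 (0.994) and AT3G45930 (0.993), followed by AT5G47030 (0.992), a subunit of the mitochondrial ATP synthase. DFR had 2 reads in water, 0 with doxycycline and 120 with EtBr. Its coefficients therefore mainly follow the split between EtBr and the other libraries, and the ranking is no sign of a particular link to histone genes. The mean of HTR2 was 313 in water, 195 with doxycycline and 3398 with EtBr.

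The wider pathway was followed through 10 lists of genes by role. Over all genes, 34.2% were called higher and 21.2% lower under EtBr, and 6.47% higher and 5.27% lower with doxycycline. Under EtBr the shares went with the level in water. They were 51.2% higher and 0.536% lower under a mean of 5, 27.6% and 31.8% at 100 to 1000, and 17.8% and 46.9% over 1000. The counts of the lists were not tested against these shares. In these lists FLS6, UGT78D3, UGT79B1, BAN, TT12, TT1, MYB113 and MYB114 had no read in water. Under EtBr they could only be called higher or not called, which bears on the counts and medians of their lists. The medians of the lists under EtBr, given below, stand beside 0.39 over all genes, and with doxycycline they lay between -0.57 and 0.40, beside -0.01 over all genes. The 0.39 is not matched to the level of a list. By water mean, the median of all genes under EtBr was 2.16 above 0 and up to 1, -0.07 at 100 to 1000 and -0.37 over 1000. Centring on the median of all genes takes 0.39 from every log2 change under EtBr, and the counts it gives stand beside those of each list where they differ. Genes near 0 in water raise that median, which was 0.092 over genes with a mean of at least 10. For genes with a water mean over 100, centring takes off more than all genes of that level changed. The lower calls it adds among such genes follow in part from that shift. Upstream, 11 genes of phenylpropanoid entry supply p-coumaroyl-CoA. Under EtBr 5 of them were lower and 0 higher (edgeR and DESeq2 likewise 5 and 0), with a median log2 change of -0.65, and at an unadjusted p under 0.05 there were 6 lower and 0 higher. The lower genes were PAL1, PAL2 and PAL3, which deaminate phenylalanine, 4CL5, a CoA ligase (log2 change -1.18 ± 0.22), and ATR1, the P450 reductase that serves C4H and F3'H (-0.75 ± 0.16). The calls of PAL1 and PAL3 were lost without water replicate 1, among others, which left 3 to 5 lower when any library was left out. With centring 4CL1, 4CL2, 4CL3 and ATR2 were called lower as well (adjusted p = 0.0347, 0.00948, 0.0266 and 0.00624), which made 9 of 11 lower and 0 higher. With doxycycline PAL4 was higher (1.96 ± 0.33) and 4CL1 (-0.68 ± 0.18) and 4CL2 (-0.89 ± 0.22) were lower. Each of these was lost when a library was left out, so that 0 to 1 higher and 0 to 1 lower were then called.

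In the lignin branch, which draws on the same precursor, 2 of 8 genes were higher under EtBr and 1 was lower, with a median log2 change of -0.22. CCR1, the cinnamoyl-CoA reductase, rose from 94.2, 63.3 and 77.4 to 434, 385 and 557 (log2 change 2.54 ± 0.22; adjusted p = 5.17e-05), though it shares 2457 of its 3578 bases with an antisense RNA. FAH1, the ferulate 5-hydroxylase of sinapate esters and syringyl lignin, rose from 1181, 576 and 875 to 2914, 3252 and 6314 (2.22 ± 0.34). CAD4, an alcohol dehydrogenase of the branch, was lower (-1.59 ± 0.42) and lost its call without water replicate 1, EtBr replicate 1 or EtBr replicate 2. Without EtBr replicate 3, HCT, CCOAOMT1 and OMT1 were called lower too (adjusted p = 0.0366, 0.00697 and 0.0435), so that 0 to 4 were lower when any library was left out, with the 2 higher genes called each time. With centring HCT and CCOAOMT1 joined CAD4, for 3 lower and 2 higher. With doxycycline 0 were higher and 2 lower, OMT1 (-1.07 ± 0.21) and CAD4 (-0.66 ± 0.19), both lost when doxycycline replicate 1 was left out. There 0 to 3 were lower when any library was left out, 3 with TMM scaling and 4 by DESeq2.

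Among the accessory protein CHIL and the FLS homologues FLS2 to FLS6, 1 of 6 was higher under EtBr and 2 were lower, with a median log2 change of 0.27. CHIL went from 123, 131 and 336 in water to 23.7, 38.6 and 31.2, without overlap (-2.48 ± 0.42; adjusted p = 0.00127), so it fell with CHS and CHI. FLS3 was lower too (-1.50 ± 0.47), a call lost without water replicate 3 (adjusted p = 0.0785) or any EtBr replicate. FLS6 was higher, with 46 reads against 0, at least 13.5-fold. With doxycycline 0 of the 5 analysed were called by limma, 1 higher and 1 lower at an unadjusted p under 0.05, 0 by edgeR and 1 higher by DESeq2. FLS2 to FLS5 lie side by side on chromosome 5, and reads shared among them make their levels uncertain.

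Of the flavonol glycosylation genes, 2 of 4 were higher under EtBr and 1 was lower, with a median log2 change of 0.52. UGT78D3, a glycosyltransferase of flavonols, had 498 reads with EtBr at 176, 174 and 110 normalised counts and 0 in water, at least 147-fold higher. It lies near its paralog UGT78D2, which was not called (0.31 ± 0.16). RHM1, a rhamnose synthase, was higher (0.73 ± 0.18) and UGT78D1, the flavonol rhamnosyltransferase, lower (-0.80 ± 0.29), and both calls were lost without EtBr replicate 1 or 2, that of RHM1 also with centring, which left 1 higher and 1 lower. With doxycycline 0 of 3 were called by limma, edgeR, DESeq2 or at an unadjusted p under 0.05. UGT89C1 was not analysed here.

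Of the anthocyanin decoration and transport genes, 4 of 8 were higher under EtBr and 1 was lower, with a median log2 change of 0.60. UGT79B1, the anthocyanin xylosyltransferase, had 87 reads with EtBr (25.5, 33.1 and 22.2 normalised counts) and 0 in water, at least 25.6-fold higher. UGT75C1, the anthocyanin glucosyltransferase, went from 8.47, 0 and 6.54 in water to 58.9, 106 and 103 (4.39 ± 0.82; adjusted p = 0.00219). Both calls held with any library left out. Those of SCPL10 and BGLU10 did not, which left 2 to 4 higher. Centring also ended both calls and added the acyltransferase gene AT1G03940 to AT1G03495 (-1.18 ± 0.26) on the lower side, for 2 higher and 2 lower. Beside them GSTF12, the glutathione transferase needed to bring anthocyanins to the vacuole, had 2 reads with EtBr and 6 in water and 5MAT, the malonyltransferase, had 7 and 3, so neither was detectably changed at this depth. With doxycycline BGLU10 was higher (0.88 ± 0.18) and the acyltransferase genes AT1G03940 (-1.28 ± 0.23) and AT1G03495 (-0.86 ± 0.21) were lower, all lost without doxycycline replicate 1.

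Of the proanthocyanidin branch, which colours the seed coat, 3 of 7 genes were higher under EtBr and 1 was lower, with a median log2 change of 1.49. BAN, TT12 and TT1 had no read in water, so they could only be called higher or not called. The count and the median of this list are therefore not evidence of a rise of the branch. TT12, the vacuolar transporter, had 55 reads against 0, at least 16.2-fold higher, and BAN, the anthocyanidin reductase, 23 against 0, at least 6.77-fold higher. TT16, a MADS-box factor, had 66 reads against 1, a ratio of 58.3 with a 95% counting interval of 10.1 to 2338. TT10, a laccase, was lower (-1.25 ± 0.38), a call lost without water replicate 1 or 3 or EtBr replicate 2. TT2, the MYB factor that switches BAN on in the seed coat, had 2 reads with EtBr and 7 in water. The summed level of the seed coat markers BAN, TT2 and TT12 was 0 to 6.35 in water and 20.2 to 29.2 with EtBr. These markers went opposite ways: the sum was TT2 alone in water and mostly BAN and TT12 with EtBr. It therefore does not show a common rise of seed coat markers. The part of seed coat cells in the levels of DFR and LDOX was not tested. With doxycycline 0 of 4 were called by limma, edgeR, DESeq2 or at an unadjusted p under 0.05.

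The activators outside the 10 genes had 1 of 9 higher and 2 lower under EtBr, with a median log2 change of 0.40. MYB12, the activator of CHS, CHI and FLS1, was measured at 68.8, 56.1 and 75.2 in water and at 21.1, 34.9 and 14.1 with EtBr, without overlap (-1.55 ± 0.38; adjusted p = 0.00881). Its call was lost without EtBr replicate 1 (adjusted p = 0.0544). EGL3, a bHLH factor related to TT8, was lower as well (-1.92 ± 0.55), lost without water replicate 2 or 3 or EtBr replicate 1, and MYB11 was higher on 28 reads against 3, a call that edgeR, DESeq2 and centring did not make and that was lost without water replicate 2 or 3 or EtBr replicate 1 or 2. Without EtBr replicate 3, MYB114 was called higher (adjusted p = 0.00263), so that 0 to 2 were higher and 1 to 2 lower when any library was left out. TTG1, the WD-repeat partner, was not called, at 681 to 775 with EtBr beside 729 to 878 in water (-0.10 ± 0.13). With centring TTG1 (-0.49, adjusted p = 0.0131) and MYB111 (-2.50, adjusted p = 0.0330) were called lower, for 0 higher and 4 lower. With doxycycline MYB12 was measured at 65.4, 52.9 and 72.4 in water and at 121, 100.5 and 113, without overlap (0.81 ± 0.24; limma adjusted p = 0.0558), and edgeR and DESeq2 called it higher. Of 8 analysed with doxycycline 0 were called higher by limma and 1 lower, EGL3 (-1.64 ± 0.46), a call lost when any library was left out. Set against doxycycline, MYB12 was lower with EtBr (-2.35 ± 0.35; adjusted p = 0.00159).

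Among the repressors 1 of 9 was higher and 1 lower under EtBr, with a median log2 change of -0.26. MYBL2, a MYB-type repressor of the late genes, was measured at 689, 615 and 430 in water and at 1113, 1231 and 2040 with EtBr (1.31 ± 0.26; adjusted p = 0.00304). All EtBr libraries were above all water libraries. CPC was lower (-0.96 ± 0.33), lost without water replicate 2 or 3 or EtBr replicate 2 or 3, and MYB4 was called higher without EtBr replicate 1 (adjusted p = 0.0390). With centring LBD39 (-0.65, adjusted p = 0.00506), MYB7 (-0.80, adjusted p = 0.0272) and MYB32 (-1.14, adjusted p = 0.0166) were called lower beside CPC, for 1 higher and 4 lower of 9. With doxycycline 3 of 9 were higher, MYBL2 (0.63 ± 0.17), MYB4 (0.72 ± 0.18) and MYB7 (1.09 ± 0.20), and LBD39 was lower (-0.68 ± 0.16). All of these were lost without doxycycline replicate 1, and 0 to 1 higher and 0 lower remained called when any library was left out.

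Of the light and UV-B regulators, 6 of 11 were lower under EtBr and 2 were higher, with a median log2 change of -0.59. All of them had a water mean over 100, where 31.8% (100 to 1000) or 46.9% (over 1000) of all genes were lower. HY5, the bZIP activator of CHS, was lower (-0.59 ± 0.19; adjusted p = 0.0263), a call lost without water replicate 2 or EtBr replicate 1 or 2. BBX20, a B-box cofactor of HY5, went from 1286, 1092 and 959 in water to 463, 399 and 459 (-1.33 ± 0.15; adjusted p = 0.000168). PIF3 fell by 1.22 ± 0.15 on the log2 scale, UVR8, the UV-B receptor, by 1.07 ± 0.13, its feedback inhibitor RUP2 by 1.85 ± 0.24, and BBX21 by 0.91 ± 0.12, each with any library left out. BBX22 was measured at 652, 656 and 579 in water and at 1802, 1692 and 2194 with EtBr (1.58 ± 0.14), and HYH, the homologue of HY5, rose as well (1.32 ± 0.26). With centring COP1, RUP1 and CRY1 were called lower too, for 9 of 11 lower and 2 higher. With doxycycline 1 was higher and 1 lower. BBX22 was the higher, from 620, 618 and 557 to 1135, 1206 and 1409 (1.06 ± 0.12; adjusted p = 0.000316), and kept its call with any library left out. PIF3 was the lower (-0.46 ± 0.10), lost without doxycycline replicate 1.

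Between the treatments, light and UV-B regulators had 8 of 11 lower with EtBr than with doxycycline and 2 higher, with a median log2 difference of -0.76 beside 0.14 over all genes. Over all genes 24.8% were lower and 32.4% higher, and neither these shares nor the 0.14 are matched to the level of a list. Phenylpropanoid entry had 6 of 11 lower and 1 higher (median -0.81), and 8 lower with TMM scaling or centring. Among them C4H, the cinnamate hydroxylase, was the higher gene, at 5723, 6516 and 14276 with EtBr and 2687, 2565 and 3322 with doxycycline (log2 difference 1.51 ± 0.34; adjusted p = 0.00886). Lignin had 0 of 8 lower and 2 higher, with 0 to 2 lower and 2 to 3 higher when any library was left out: HCT and CAD4 were called lower without EtBr replicate 3. Anthocyanin decoration had 0 of 8 lower and 3 higher, and BGLU10 was called lower with centring. The repressors had 2 of 9 lower, MYB7 and MYB32, and 2 higher, MYBL2 and LBD39. Both higher calls were lost with TMM scaling (adjusted p = 0.0709 and 0.0851) and with centring (0.0869 and 0.119), and when any library was left out 0 to 3 were higher and 1 to 2 lower. None was called higher without doxycycline replicate 1, doxycycline replicate 2 or EtBr replicate 2. CHIL was lower with EtBr (-2.82 ± 0.29; adjusted p = 0.000322), as CHS, CHI and FLS1 were.

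**Figure D4:**
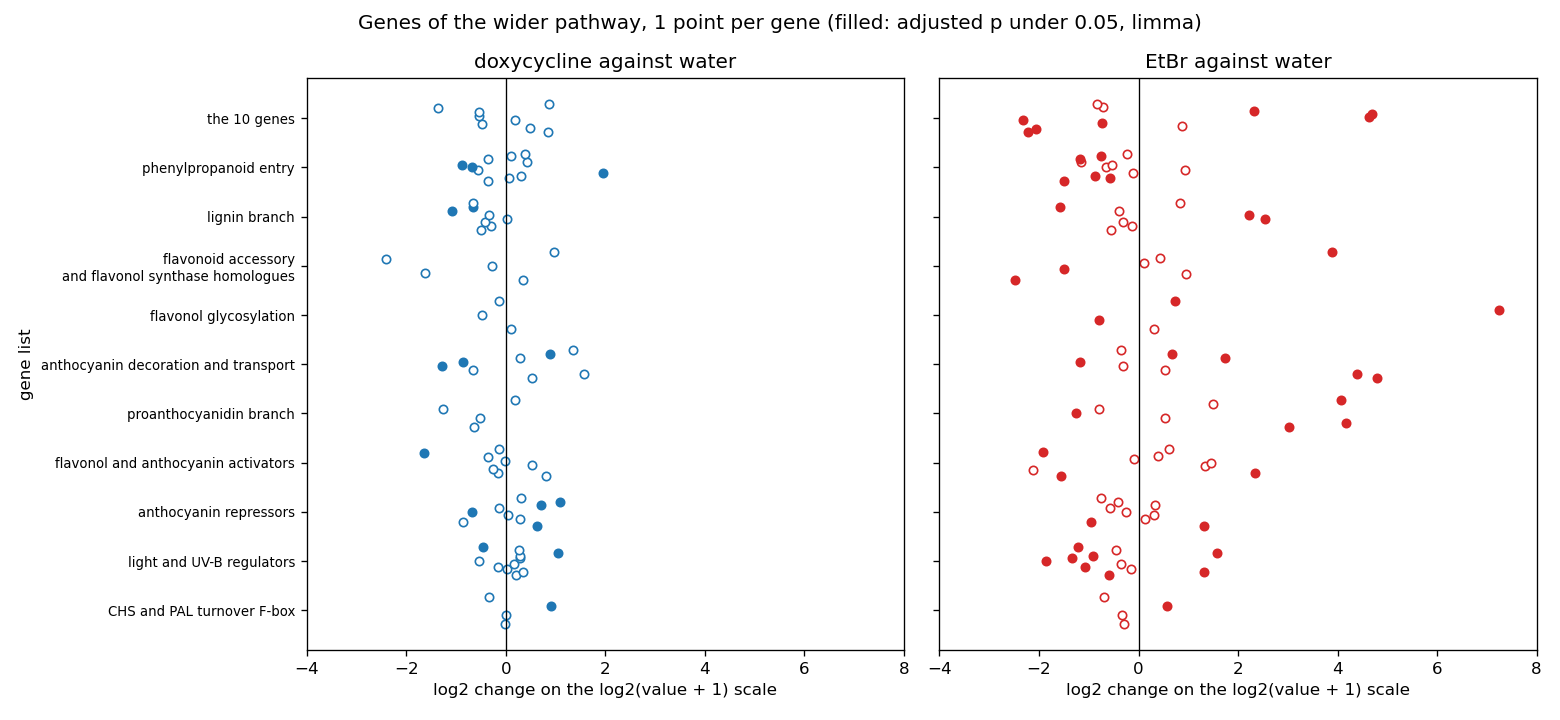
Log2 change of each gene of the lists (horizontal axis; 1 point per gene, filled where called) for doxycycline against water on the left and EtBr against water on the right, with the lists in rows. Under EtBr, phenylpropanoid entry has filled points only on the lower side, 5 of 11. The anthocyanin row has filled points at 4.78, 4.39, 1.73, 0.68 and -1.18 (UGT79B1, UGT75C1, SCPL10, BGLU10 and AT1G03495), and the proanthocyanidin row at 4.16, 4.07, 3.03 and -1.25 (TT12, TT16, BAN and TT10).

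Of the F-box genes known to mark CHS and PAL proteins for turnover, 1 of 4 was higher under EtBr and 0 were lower, with a median log2 change of -0.31. KFB20 was the called gene, at 0.57 ± 0.17 under EtBr and 0.91 ± 0.14 with doxycycline, and the first call was lost without water replicate 2 or 3 or any EtBr replicate, the second without water replicate 3 or any doxycycline replicate. With centring KFB20 was not called under EtBr (0.18, adjusted p = 0.397) and KFB-CHS was called lower (-0.68, adjusted p = 0.0390), so the count turned to 0 higher and 1 lower. KFB50 had 0 to 1 read in each library and shares 1389 of its 1584 bases with an antisense RNA, and KFB39 was not analysed here. Over the organ markers under EtBr, 2 of 7 green tissue genes were lower and 0 higher, and 2 of 7 root genes were higher and 3 lower. Without EtBr replicate 1, 2 or 3 or water replicate 2 both higher root calls, EXPA7 (1.26 ± 0.42) and RHS19 (1.35 ± 0.35), were lost, and that of EXPA7 also without water replicate 1 and with centring, while 3 to 4 stayed lower. With centring 3 green tissue genes were lower, LHCA3 being added. With doxycycline 0 of 7 green tissue genes were called, none of them at an unadjusted p under 0.05 and 0 by edgeR and DESeq2, and 2 of 7 root genes were lower, RHS19 and EXPA7. At an unadjusted p under 0.05 there were 4 lower root genes, 3 by edgeR and 4 by DESeq2, and 1 when any library was left out, EXPA7 being lost each time. No green tissue marker was at 0 in any library, and of the root markers COBL9, EXPA7 and RHS19 were each at 0 in 1 doxycycline library. The part of these organ shares in the levels of the 10 genes was not tested.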

How the data were processed

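Per the labels' protocols, TRIzol served for RNA extraction and the NEBNext Ultra kit for library preparation. The submitters' processing notes list HTSeq 0.6.1, DESeq 1.18.0, TopHat2 2.0.12, CASAVA 1.8 and Bowtie2 2.2.3, with no role or order. The authors deposited a signal value per gene and library, which the values show to be read counts divided by a size factor, with their own log2 fold changes and p-values, per the file headers. Dividing by the step between low values gave whole reads (tolerance 0.001) for 100% of values in each library. For 4 columns the step lies near 1, where this test is weak. Reads of the water libraries were the same in both tables for 100% of shared genes. Replicates differed by more than sampling noise (chi-square over degrees of freedom of at least 8.23).

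limma 3.58.1 in R 4.3.3 (lmFit, eBayes with a mean-variance trend) was fitted on log2(value + 1) over all genes of a table, 3 against 3, two-sided, without filter or covariates. EtBr was set against doxycycline on recovered reads over median-ratio size factors of all 9 libraries. The step was tested on simulated data. Alternatives were pseudocounts of 0.1 and 5, a mean of at least 10, a threshold of 0.01, TMM scaling, centring on the median of all genes, DESeq2 1.42.0 and edgeR 4.0.16 on recovered counts, each library left out, and a replicate block. In the authors' deposited table, 0 of 8 of the genes pass an adjusted p of 0.05 with doxycycline, and 2 higher and 4 lower of 10 with EtBr. Read ratios have exact 95% intervals, and a floor of 3 reads stands for a group at 0. Values given as at least so many fold use that floor and take the reads of the other group without counting error.

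No source used here names the genome build of the tables. Positions in the tables equal those of RefSeq TAIR10.1 for 99.975% and 99.986% of matched nuclear genes and for all genes of the set, so windows before gene starts were read from TAIR10.1. Named genes are the 10, the 2 with the smallest adjusted p per list and comparison with water, and the 5 most like CHS and the 5 most like DFR. Genes named beyond these, to spell out a count, were chosen after their values were seen. The genes and lists were chosen with earlier results of these data known.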

Additional observations from a re-analysis of the deposited data

How the results depend on the processing

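Under EtBr against water the count of called genes among the 10 stayed within 1.5 times under each alternative run. DFR, LDOX, CHS, CHI and FLS1 kept their calls in all of them, while PAP1 and F3'H lost theirs at a threshold of 0.01, and a mean of at least 10 left PAP1 and F3H untested. No value changed sign with its call. Over all genes, doxycycline against water gave 2868 calls, 1281 at a threshold of 0.01, and 777 to 1980 with 1 library left out. Among the 10 genes it gave 0 higher, and 0 to 1 with 1 library left out, the 1 being CHS without water replicate 3. The cause was not tested. Leaving out a library also leaves fewer samples. Whether the replicate numbers of the labels pair the libraries was not settled. Deviations from group means correlated by -0.01, 0.03 and 0.01 for doxycycline and water of the same number. Other numbers gave -0.10 to 0.10. EtBr and water gave -0.14, 0.12 and -0.02, beside -0.19 to 0.22 for other numbers. EtBr and doxycycline gave 0.05, 0.10 and 0.21, all above 0, beside -0.18 to 0.13 for other numbers. With the replicate block, all genes called were 1252 higher and 891 lower with doxycycline, against 1581 and 1287 without it, and 9717 higher and 6009 lower with EtBr, and the calls among the 10 genes were 0 with doxycycline, 3 higher and 4 lower with EtBr and 2 higher and 4 lower between the treatments, as without it. Depth limits DFR, LDOX, PAP1 and F3H, which rest on 0 to 3 reads in water.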
